A study of Mus musculus with 5 samples.

Results

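The 37 genes described here encode the parts of the lysosome and of the autophagy machinery that feeds it: the transcription factors TFEB and TFE3, lysosomal membrane proteins, hydrolases with their cofactors, subunits of the proton pump, and autophagy proteins. They were taken by gene name from what is known of these organelles, with no threshold on values, although earlier results of these data were known when the list was made. All 37 were found among the 23478 gene symbols of the count table, and all 37 passed the filter on low counts, which kept 15298 genes for testing.

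The lysosome is the acidic compartment in which proteins, glycans and lipids are broken down. The vacuolar proton pump acidifies it, and TFEB and TFE3 switch on many of its genes by binding a short promoter element. In autophagy a membrane closes around cytoplasm, is decorated with proteins of the ATG8 family such as LC3, and fuses with the lysosome. Signaling from the insulin and IGF1 receptors through AKT is known to restrain both: mTORC1 holds TFEB and TFE3 in the cytoplasm, and AKT holds FOXO factors, which induce several autophagy genes, out of the nucleus.

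RNA-Seq had been done on GFP-sorted lung cells taken on P6, and the comparison asks what changes in these cells when Igf1r is deleted. The 2 control libraries came from mice with the genotype Rosa-EGFP, Igf1r Flox/Wildtype, Gli1creER+, and the 3 Igf1r-deleted libraries, called mutant here, from Rosa-EGFP, Igf1r Flox/Flox, Gli1creER+ mice. All pups of both groups were given tamoxifen on P0 and P1, 100 µg each time, so the controls carry Cre and 1 floxed allele too, and the contrast is between the possible loss of 1 copy and of 2. Cre is driven by Gli1, and GFP marks the cells in which it was active, with their descendants. By the study's staining, done for these types on lungs older than P6, they were mainly myofibroblasts with some lipofibroblasts and few pericytes. A few airway and vascular smooth muscle cells carried GFP, and no epithelial, endothelial or blood cells were seen to carry it. The sources used here give neither the number nor the sex of the pups behind a library, and p-values measure only the spread between these libraries.

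The libraries held 35116766 to 37597857 counts, and a member's count in a library lay between 576 and 38130, so no member was near 0 in any library. Levels are in CPM, that is, counts relative to the TMM-adjusted size of the library. The deleted gene was lower in each mutant: Igf1r (chromosome 7 of mm10, 67952827 to 68233668) had 324 CPM in both controls and 140, 177 and 194 CPM in mutants 1, 2 and 3, a log2 fold change of −0.93 (standard error, SE, 0.14, adjusted p = 0.354). The 6 fibroblast markers summed to 18535 to 24669.5 CPM in a library. Markers of other cells were detected too, with 237 to 651 CPM for 14 leukocyte markers, 496 to 1101 CPM for 10 epithelial markers and 261 to 754 CPM for 8 endothelial markers. No marker of these lists was at 0 in any library. The sums are over different genes and not scaled for length, so they do not compare the shares of the cell types.

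Of the 37 lysosome and autophagy genes, 29 had a lower mean estimate in mutant cells, with a median log2 fold change of −0.13 against 0.015 over all genes tested. At an unadjusted p-value under 0.05, 9 members (24.3%) were lower and 0 were higher, where 6.75% of all genes tested were lower and 5.65% higher by the same rule. These 9 were Gabarapl1, Ctsf, Map1lc3b, Ctsd, Psap, Lipa, Sqstm1, Npc2 and Neu1. Without control replicate 1, 1 of the 37 (Gabarapl1) was lower by this rule, against 1.61% of all genes tested without that library. With library totals in place of TMM, 6 were lower, against 4.86% of all genes tested, and 1 was higher. Of all 15298 genes tested, 2087 had an unadjusted p-value under 0.05 with library totals, and 744 of these were lower. Xist, the RNA of the inactive X chromosome, had 4.09 and 0.628 CPM in control replicates 1 and 2 but 170, 0.302 and 435 CPM in mutants 1, 2 and 3, and with its level as a covariate 4 of the 37 were lower, against 6.07% of all genes. The part of sex in these differences was not tested. With edgeR's quasi-likelihood F test and Benjamini-Hochberg correction, 0 members had an adjusted p-value under 0.05 (the range was 0.354 to 0.989), as did 0% of all genes tested.

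The differences were small. No member reached the study's criterion of a log2 fold change of at least 0.5 in size with an unadjusted p-value under 0.05, which 5.83% of all genes tested met, and the estimates ran from −0.48 to 0.19. In 15 members (40.5%) every mutant library lay below both controls, against 14.9% of all genes, and in 2 every mutant library lay above them, against 16.0%. The Wald test of DESeq2, the later version of the study's own tool, called 1 member, Gabarapl1 (adjusted p = 0.0340), and 1.30% of all genes. That share includes 2970 genes for which DESeq2 gave no adjusted p-value, and no member was among them. By role, the 3 lipid degradation genes and 3 of the 4 genes of the group formed by SQSTM1 and the ATG8 family were among the 9, and none of the 13 transcription factor, pump and autophagosome formation genes was.

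**Figure D1:**
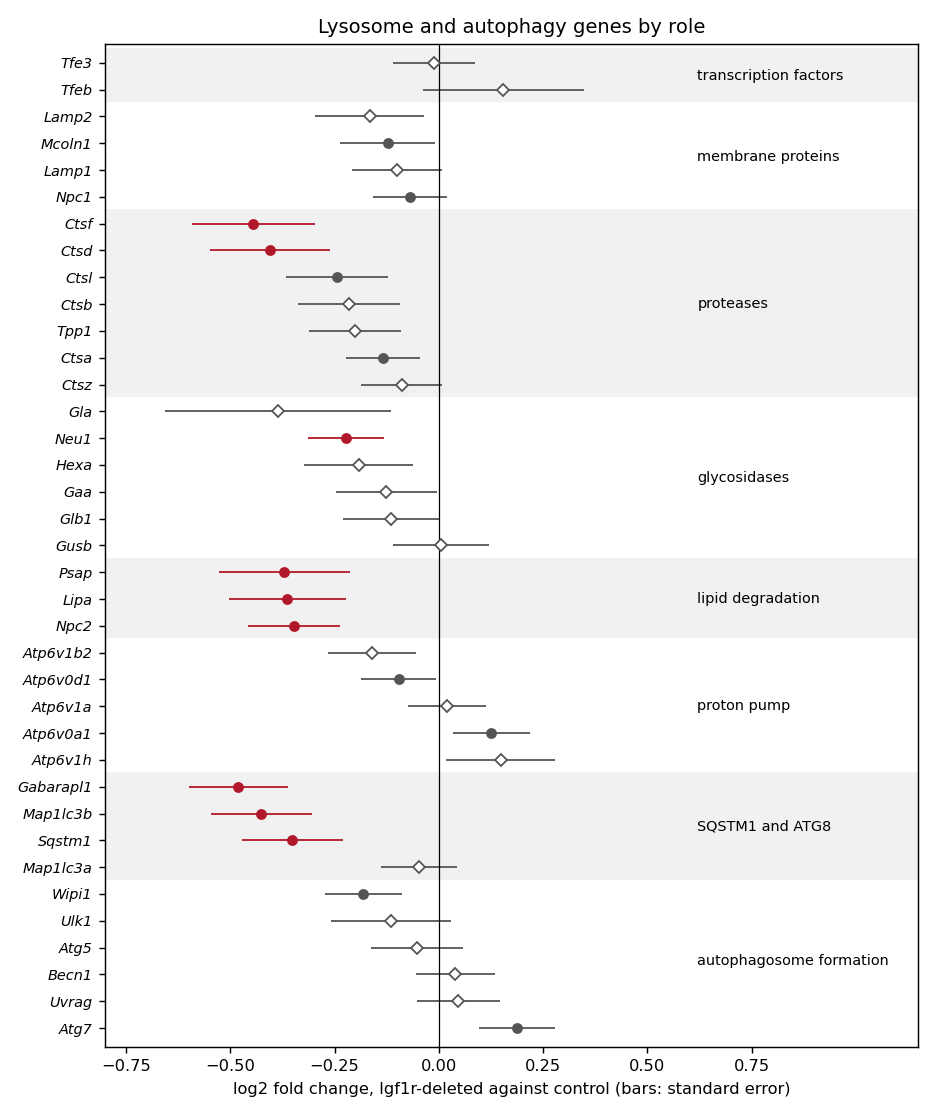
Log2 fold change of each of the 37 genes, mutant against control, with its standard error, grouped by role. Red marks an unadjusted p-value under 0.05, filled circles genes whose groups do not overlap and open diamonds genes whose groups do; the 9 red genes all lie to the left of 0, between −0.48 and −0.22.

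TFEB and TFE3 are the factors that drive the lysosomal program. Tfeb had 26.4 and 32.4 CPM in control cells and 41.2, 27.3 and 29.7 CPM in mutants 1, 2 and 3. The groups overlapped, with mutant replicate 1 above the other libraries, and the log2 fold change was 0.15 (SE 0.19, unadjusted p = 0.448). Without that replicate it was −0.051. Tfe3 had 48.2 and 50.4 CPM in control cells against 52.3, 46.9 and 47.7 CPM, a log2 fold change of −0.011 (SE 0.098). The counts give the amount of these mRNAs and say nothing of where the proteins were.

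The element that TFEB and TFE3 recognize is built around the palindrome CACGTG and in its longer form reads TCACGTGA. Promoters of 31 of the 37 members were in the RefSeq promoter table used here (build GRCm38.p6, 250 bases before to 50 after a start), those of all but Atp6v1b2, Map1lc3a, Becn1, Ctsb, Atp6v1h and Npc1. CACGTG occurred in a promoter of 13 of the 31 (41.9%), against 11.0% of the genes tested and 7.15% of all 32851 promoters. TCACGTGA, which contains the shorter word, occurred in 6 of the 31 (19.4%), those of Ctsa, Ctsd, Gla, Mcoln1, Atp6v0d1 and Atp6v1a, against 1.99% of the genes tested and 0.974% of all promoters. Both words are their own reverse complement, so 1 reading covers both strands.

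The promoters shown next are those of 2 lower members with the element, 2 members with it that were not among the 9, and the 2 members with the most negative estimates among the ATG8 genes, which lack it. Each gives the 250 bases before the start, 5′ to 3′ in the direction of the gene, with CACGTG or TCACGTGA in capitals.

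Ctsd, chr7:142387828-142388077 (minus strand): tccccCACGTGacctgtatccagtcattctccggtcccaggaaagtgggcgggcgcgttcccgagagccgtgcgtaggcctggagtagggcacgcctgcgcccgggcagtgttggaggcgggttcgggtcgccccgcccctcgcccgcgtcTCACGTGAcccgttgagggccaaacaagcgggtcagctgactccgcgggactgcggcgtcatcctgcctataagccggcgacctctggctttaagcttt
Ctsf, chr19:4854915-4855164 (plus strand): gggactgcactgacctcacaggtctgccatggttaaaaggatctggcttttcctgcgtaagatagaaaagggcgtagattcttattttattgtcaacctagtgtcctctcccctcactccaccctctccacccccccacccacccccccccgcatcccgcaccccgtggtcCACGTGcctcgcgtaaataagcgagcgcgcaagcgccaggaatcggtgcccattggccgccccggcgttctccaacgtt
Lamp1, chr8:13158911-13159160 (plus strand): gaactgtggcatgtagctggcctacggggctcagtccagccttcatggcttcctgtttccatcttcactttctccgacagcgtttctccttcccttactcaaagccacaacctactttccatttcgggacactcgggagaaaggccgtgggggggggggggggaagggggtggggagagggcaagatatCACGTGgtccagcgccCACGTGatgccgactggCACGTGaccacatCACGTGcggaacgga
Mcoln1, chr8:3500269-3500518 (plus strand): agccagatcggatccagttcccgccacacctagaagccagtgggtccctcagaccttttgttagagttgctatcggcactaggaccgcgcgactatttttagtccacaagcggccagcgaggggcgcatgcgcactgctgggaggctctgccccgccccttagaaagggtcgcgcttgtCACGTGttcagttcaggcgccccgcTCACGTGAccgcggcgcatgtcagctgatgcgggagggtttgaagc
Gabarapl1, chr6:129532942-129533191 (plus strand): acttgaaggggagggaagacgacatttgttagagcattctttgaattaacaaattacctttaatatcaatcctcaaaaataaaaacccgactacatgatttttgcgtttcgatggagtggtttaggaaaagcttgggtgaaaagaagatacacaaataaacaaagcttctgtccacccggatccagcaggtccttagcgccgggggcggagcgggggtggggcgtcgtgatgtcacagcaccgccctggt
Map1lc3b, chr8:121590188-121590437 (plus strand): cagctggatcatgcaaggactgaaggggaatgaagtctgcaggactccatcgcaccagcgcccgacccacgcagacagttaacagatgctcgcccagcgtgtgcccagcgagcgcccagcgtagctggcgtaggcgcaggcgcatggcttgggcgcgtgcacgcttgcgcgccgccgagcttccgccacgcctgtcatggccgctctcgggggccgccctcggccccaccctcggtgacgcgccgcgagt

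The Ctsd promoter holds TCACGTGA 99 bases before the start and CACGTG 245 bases before it, and that of Ctsf holds CACGTG 79 bases before it. Lamp1 has 4 copies of CACGTG, at 61, 45, 28 and 15 bases, and Mcoln1 has TCACGTGA at 46 bases and CACGTG at 71. The median log2 fold change was −0.12 over the 13 members with CACGTG and −0.19 over the 18 without it. Of the 9 lower members, 2 held CACGTG (22.2%), and 11 of the other 22 did (50%). A forkhead word, TGTTTAC or its reverse complement GTAAACA, was in 0 of the 36 promoters of members, against 3.65% of all promoters. With a share that small, 0 of 36 does not set the members apart, and other forms of the forkhead site were not counted. These are matches of letters within a window and not measured binding.

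The ATG8 proteins are coupled to lipid on the growing autophagosome, and SQSTM1 is the receptor that ties ubiquitinated cargo to them. Gabarapl1 (chromosome 6, 129533160 to 129542346, plus strand) had the most negative estimate of all members. It had 199 and 162 CPM in control cells and 123, 126 and 138 CPM in mutants 1, 2 and 3. All 3 mutant libraries lay below both controls, and the mean was 28.3% lower (log2 fold change −0.48, SE 0.12, unadjusted p = 0.00443, adjusted p = 0.354). Map1lc3b, which encodes LC3B (chromosome 8, 121590361 to 121598760, plus strand), had 350 and 287 CPM versus 241, 220 and 251 CPM, again without overlap (log2 fold change −0.43, SE 0.12, unadjusted p = 0.00939).

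Sqstm1 (chromosome 11, 50199366 to 50210827, minus strand) had 684 and 560 CPM in control cells and 508, 473 and 482 CPM in mutant cells. The mutant libraries were close together and below both controls (log2 fold change −0.35, SE 0.12, unadjusted p = 0.0221). The remaining gene of this group, Map1lc3a, encodes LC3A, a second form of LC3. Its level was 99.0 and 102 CPM in control cells and 101, 96.3 and 94.1 CPM in mutant cells, so the groups overlapped and the log2 fold change was −0.048 (SE 0.091). The values of Gabarapl1 and Sqstm1 are less certain, since 28.3% and 17.3% of their exon length overlap 1700101I11Rik and Mrnip on the opposite strand and the use of strand in counting is not given in the sources used here. Map1lc3b shares 8.6% of its 31-base words with other annotated transcripts, among them Gm6055 and Gm12727.

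**Figure D2:**
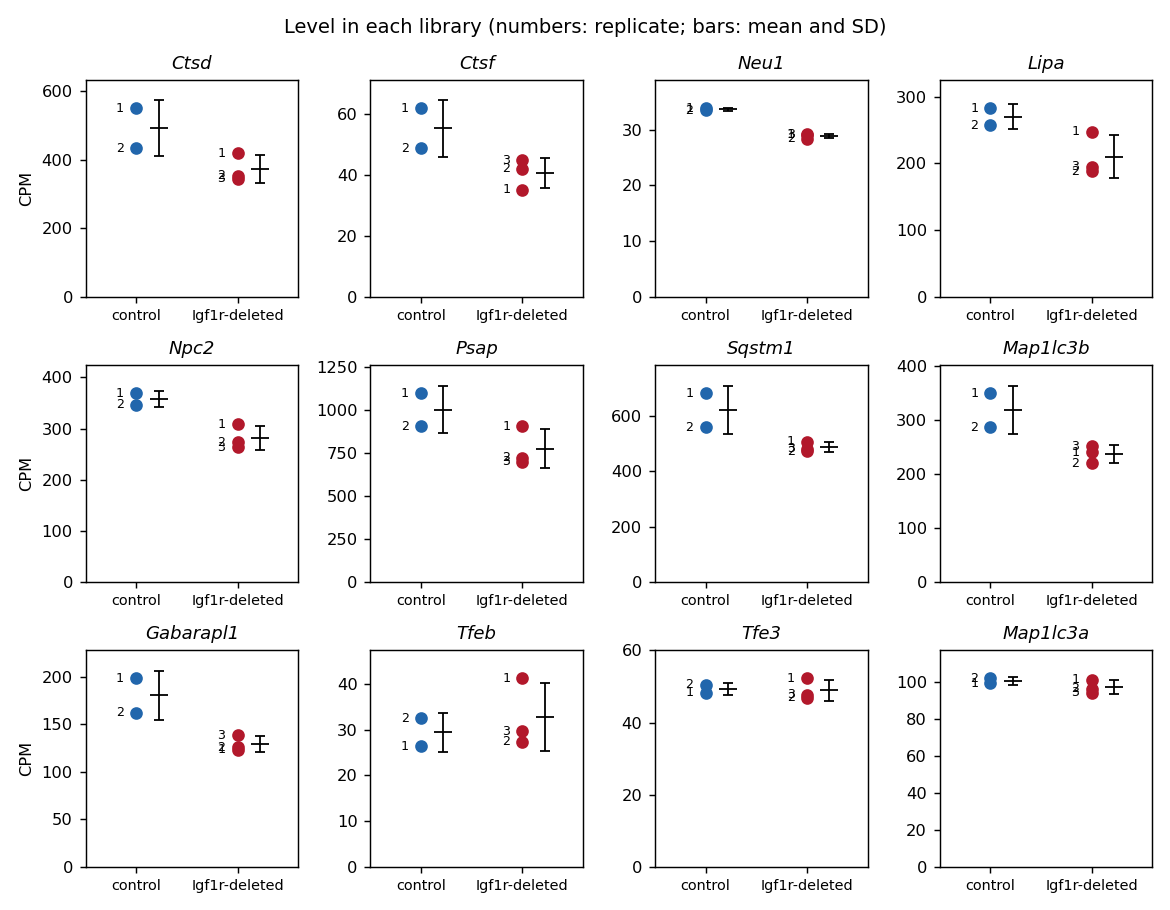
CPM in each library for the 9 members with an unadjusted p-value under 0.05 and for Tfeb, Tfe3 and Map1lc3a, each axis starting at 0; points are libraries with their replicate number and bars give the mean and SD of 2 controls and 3 mutant libraries. In the 9 genes from Ctsd to Gabarapl1 every mutant library lies below both controls, by the narrowest margin for Psap (905.8 against 906.2 CPM), whereas Tfeb, Tfe3 and Map1lc3a overlap.

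Psap, Lipa and Npc2 serve lipid breakdown. Psap encodes prosaposin, the precursor of the saposins that present sphingolipids to their hydrolases. It had the highest level of the members for its length, 365 CPM per kilobase of exon in the controls, and lies on chromosome 10 (60277627 to 60302597, plus strand). Its level was 1098 and 906.2 CPM in control cells and 905.8, 723 and 698 CPM in mutants 1, 2 and 3. Mutant replicate 1 thus equalled control replicate 2 to within 1 CPM, and the log2 fold change was −0.37 (SE 0.16, unadjusted p = 0.0484).

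Lipa encodes the acid lipase that frees cholesterol and fatty acids from lipoprotein lipids (chromosome 19, 34492318 to 34527474, minus strand). It had 283 and 257 CPM in control cells and 247, 188 and 195 CPM in mutant cells, 22.3% lower in the mean (log2 fold change −0.36, SE 0.14, unadjusted p = 0.0351). Npc2 encodes the soluble carrier that hands this cholesterol to the membrane protein NPC1 (chromosome 12, 84754562 to 84773152, minus strand). It had 369 and 346 CPM versus 308, 273 and 263 CPM, without overlap (log2 fold change −0.35, SE 0.11, unadjusted p = 0.0151). Its partner Npc1 differed less, with 142 and 141 CPM in control cells and 138, 134 and 132 CPM in mutant cells (log2 fold change −0.070, SE 0.088).

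All 7 genes of lysosomal proteases had negative estimates, with a median log2 fold change of −0.22, and 2 were among the 9. Ctsd encodes cathepsin D, the main aspartic protease of the lysosome (chromosome 7, 142375911 to 142388038, minus strand). It had 551 and 434 CPM in control cells and 418, 353 and 344 CPM in mutants 1, 2 and 3, so both controls lay above the highest mutant library (log2 fold change −0.41, SE 0.14, unadjusted p = 0.0254). Reads of Ctsd are uncertain because 34.4% of its exon length is shared with the annotated gene Gm49369. Ctsf, a cysteine protease gene (chromosome 19, 4855130 to 4860918, plus strand), had 61.9 and 48.6 CPM versus 35.1, 41.9 and 44.7 CPM, a mean 26.5% lower (log2 fold change −0.44, SE 0.15, unadjusted p = 0.0185).

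The other protease genes, Ctsl, Ctsb, Tpp1, Ctsa and Ctsz, had log2 fold changes between −0.24 and −0.089 and unadjusted p-values from 0.0859 to 0.385. For Ctsl and Ctsa the groups did not overlap. Their reads are uncertain too, since 26.8% of the exon length of Ctsl lies opposite Gm47123 and Gm49230 and 17.4% of that of Ctsa opposite Pltp and Neurl2. Ctsz, the protease gene with the estimate closest to 0, had 133 and 121 CPM in control cells and 124, 120 and 114 CPM in mutant cells, where the groups overlapped.

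Of the 6 glycosidase genes, Neu1 was the one among the 9. It encodes the sialidase that removes terminal sialic acid from glycans (chromosome 17, 34931253 to 34935953, plus strand). It had 34.0 and 33.6 CPM in control cells and 29.2, 28.4 and 29.1 CPM in mutant cells. The libraries of each group were close together and the groups were apart, with means of 33.8 ± 0.279 CPM in control cells (SD, n = 2) and of 28.9 ± 0.410 CPM in mutant cells (SD, n = 3). At its 1030 to 1230 counts in a library, counting alone spreads values by more than these SDs, so the closeness does not measure precision. The log2 fold change was −0.22 (SE 0.091, unadjusted p = 0.0430), and it was between −0.24 and −0.22 when single libraries were omitted, the narrowest range of the 9.

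Gla, the α-galactosidase gene of the X chromosome, had the most negative estimate among the glycosidases and the widest error. It had 29.5 and 18.6 CPM in control cells and 24.7, 14.5 and 16.1 CPM in mutant cells, so replicate 1 of the mutant group lay between the controls (log2 fold change −0.39, SE 0.27, unadjusted p = 0.197). Without control replicate 1 its log2 fold change was −0.023. Gusb, the β-glucuronidase gene, had 78.9 and 79.6 CPM versus 89.6, 72.8 and 76.3 CPM, a log2 fold change of 0.0054 (SE 0.12). Hexa, Gaa and Glb1, which act on gangliosides, glycogen and terminal galactose, had log2 fold changes from −0.19 to −0.11, and their groups overlapped.

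The 4 membrane protein genes had negative estimates, that of Npc1 turning positive with library totals in place of TMM, and none had an unadjusted p-value under 0.05. Lamp1 and Lamp2 encode the abundant glycoproteins that line the lysosomal membrane, and Mcoln1 a calcium channel of that membrane. Lamp2, the lowest of the 4 by estimate, had 708 and 665 CPM in control cells and 686, 541 and 610 CPM in mutant cells (log2 fold change −0.17, SE 0.13, unadjusted p = 0.241). For Lamp1 the log2 fold change was −0.10 and for Mcoln1 −0.12. In Mcoln1 the groups were apart only beyond the third digit, with 19.4 CPM in both control replicate 2 and mutant replicate 2.

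The 5 proton pump genes gave a median log2 fold change of 0.019 and divided into 2 lower and 3 higher, of which Atp6v1a (0.019) turned negative with Xist as a covariate. Their summed level was 313 and 302 CPM in control cells and 309.8, 307 and 297 CPM in mutant cells. Atp6v1b2 was the lowest, with 53.1 and 47.0 CPM versus 44.0, 47.8 and 42.6 CPM (log2 fold change −0.16, SE 0.11). Atp6v1h was the highest, with 20.8 and 16.9 CPM versus 21.5, 19.8 and 21.3 CPM (log2 fold change 0.15, SE 0.13). Both overlapped between the groups. Atp6v0a1 was higher in every mutant library (log2 fold change 0.13, unadjusted p = 0.217) and Atp6v0d1 lower in each of them (log2 fold change −0.097, unadjusted p = 0.312).

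The genes that start and extend the autophagosome also showed no common direction. Ulk1 encodes the kinase that starts the process, Becn1 and Uvrag belong to the lipid kinase complex that follows it, Wipi1 binds the lipid that complex makes, and Atg5 and Atg7 act in coupling the ATG8 proteins to lipid. Their median log2 fold change was −0.0062, with 3 lower and 3 higher and 0 at an unadjusted p-value under 0.05. Atg7 had 42.8 and 44.1 CPM in control cells and 48.2, 49.4 and 50.9 CPM in mutant cells, all 3 above both controls (log2 fold change 0.19, SE 0.091, unadjusted p = 0.0779). Wipi1 had 67.9 and 67.8 CPM versus 58.1, 58.4 and 63.1 CPM, all 3 below (log2 fold change −0.18, SE 0.093, unadjusted p = 0.0912). The Ulk1 level stood apart in 1 library, with 75.6 and 73.1 CPM in control cells and 56.1, 75.2 and 74.7 CPM in mutants 1, 2 and 3. The log2 fold changes of Ulk1, Atg5, Becn1 and Uvrag lay between −0.12 and 0.046, and the groups overlapped in each. Reads of Becn1 are uncertain, because 43.9% of its exon length lies opposite Cntd1.

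Per kilobase of exon the control levels of the members ran from 1.93 CPM for Atp6v1h to 365 CPM for Psap. Of the 5 members with the highest level on this scale, Psap, Ctsd, Lamp1, Sqstm1 and Gabarapl1, all but Lamp1 were among the 9. The next in rank, Ctsz, Ctsb, Map1lc3a and Lamp2 (ranks 6 to 9), were not among them, whereas Ctsf and Neu1 were, at ranks 26 and 28. A relation of level to fold change was not tested. Both transcription factor genes were among the 5 lowest, at 5.18 CPM per kilobase for Tfeb and 5.33 for Tfe3. The exon lengths are those of all annotated transcripts of a gene merged, so levels per length are approximate.

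**Figure D3:**
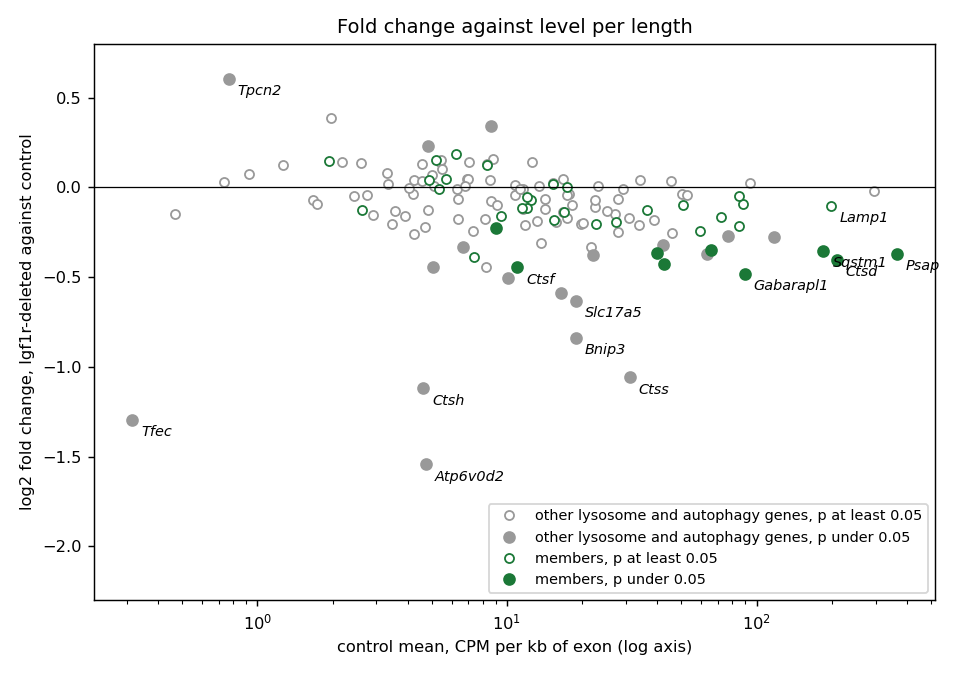
Log2 fold change of the 37 members (green) and of 104 other lysosome and autophagy genes (grey) against their control level in CPM per kilobase of exon, on a log axis; filled points have an unadjusted p-value under 0.05. The filled members lie between −0.48 and −0.22, while the largest estimates of the other genes, from Atp6v0d2 at −1.54 to Tpcn2 at 0.60, reach further.

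A list of 105 further genes of the lysosome and of autophagy, written from general knowledge, was read from the same fit. The median log2 fold change of the 104 that could be tested was −0.067. At an unadjusted p-value under 0.05, 15 of them (14.4%) were lower and 3 higher, where 6.75% and 5.65% of all genes were, and 0 had an adjusted p-value under 0.05. Without control replicate 1, 1 was lower, against 1.61% of all genes. In 25 (24.0%) the groups did not overlap with the mutant libraries below, and in 8 with them above, against 14.9% and 16.0% of all genes. The untested gene was Atp6v0c, a proton pump gene with 0 to 2 counts in each library, whose transcripts share 11.9% of their 31-base words with other transcripts such as the pseudogene Atp6v0c-ps2.

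The 15 lower genes held more hydrolases: the cathepsin genes Ctsh (log2 fold change −1.12), Ctss (−1.06), Ctso (−0.59) and Ctsk (−0.32), the asparaginyl protease gene Lgmn (−0.27), the mannosidase genes Man2b1 (−0.51) and Manba (−0.33), and Aga (−0.44), whose product cleaves the sugar link on asparagine. They also held the sialic acid exporter gene Slc17a5 (−0.63), the pump subunit gene Atp6v0d2 (−1.54), the transcription factor gene Tfec (−1.30), the autophagy genes Atg101 (−0.38), Gabarap (−0.27) and Bnip3 (−0.84), and Igf2r (−0.37). Igf2r encodes the receptor that carries newly made hydrolases to the lysosome and also binds IGF2. The 3 higher genes were Tpcn1 (0.34) and Tpcn2 (0.60), which encode endolysosomal cation channels, and Pik3r4 (0.23), a subunit of the lipid kinase complex of autophagy.

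The 6 largest of these estimates were in genes of low to moderate level. Atp6v0d2 had 15.1 and 10.6 CPM in control cells and 8.47, 2.24 and 2.53 CPM in mutants 1, 2 and 3. Tfec had 2.13 and 1.39 CPM versus 0.935, 0.654 and 0.557 CPM, and Ctsh 24.7 and 17.0 CPM versus 12.3, 11.3 and 5.18 CPM. In these 3 genes every mutant library was below both controls. Ctss, known for its abundance in macrophages, had 52.0 and 32.4 CPM versus 34.5, 15.1 and 11.2 CPM, with overlap. Bnip3, a mitophagy receptor gene, had 57.4 and 28.3 CPM versus 27.2, 20.0 and 24.7 CPM, so control replicate 1 stood far above the other libraries. Without that library its log2 fold change was −0.25, and 57.0% of its 31-base words are shared with other transcripts. Slc17a5 had 81.3 and 55.5 CPM versus 40.6, 41.0 and 50.8 CPM.

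Markers of leukocytes had lower estimates too, and lysosomal genes are known for high expression in macrophages. All 14 leukocyte markers had negative estimates, with a median log2 fold change of −0.68, and 4 of them (Marco, C1qb, Laptm5 and Cd68) were lower at an unadjusted p-value under 0.05, against 6.75% of all genes. Without control replicate 1 the median was −0.32, and without control replicate 2 it was −0.99. Their summed level was 651 and 439.8 CPM in control cells and 514, 385 and 237 CPM in mutants 1, 2 and 3, of which Lyz2 gave 379, 266, 317, 254 and 142 CPM in the same order. Mutant replicate 1 lay between the controls in this sum. Epithelial markers summed to 1101 and 1026 CPM versus 739, 1103 and 496 CPM, of which Sftpc gave 530, 543, 380, 552 and 233 CPM. Of these markers 9 had negative estimates and 1 (Scgb1a1) a positive one, with a median log2 fold change of −0.39. With single libraries left out this median ran from −0.68 to −0.195. Sftpa1 (−0.79) alone was lower at an unadjusted p-value under 0.05, and it met the study's criterion. Endothelial markers summed to 553 and 538 CPM versus 512, 754 and 261 CPM, with 5 negative and 3 positive estimates. In sorted but unseparated cells such as these, fewer cells of a type and less RNA per cell cannot be told apart. The part of leukocytes or epithelial cells in the lower lysosomal genes was not tested.

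Markers of the fibroblast types within the sort were also read. The 6 lipofibroblast markers summed to 5029 and 4255 CPM in control cells and 4193, 3669 and 4106 CPM in mutant cells, below both controls in each. Of these 6, Tcf21 had an unadjusted p-value under 0.05 (1662 and 1168 CPM versus 1003, 902 and 963 CPM) and Lpl had a positive estimate (0.23). Only for Tcf21 did every mutant library lie below both controls, and the groups of the other 5 overlapped. The separation of the sum is therefore not shared by most of its genes. The 6 myofibroblast markers summed to 1938 and 2694 CPM versus 2673, 3558 and 3095 CPM, with overlap. All 6 had positive estimates, with a median log2 fold change of 0.45, or 0.22 without control replicate 1. Of them 3 (Acta2, Tagln and Actg2) were higher at an unadjusted p-value under 0.05, against 5.65% of all genes. The 3 lipid degradation genes summed to 1750.2 and 1509.8 CPM in control cells and 1462, 1183 and 1156 CPM in mutants 1, 2 and 3, and the 4 genes of SQSTM1 and the ATG8 family to 1332 and 1111 CPM versus 973, 915 and 966 CPM. Their relation to the mix of fibroblasts was not tested.

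**Figure D4:**
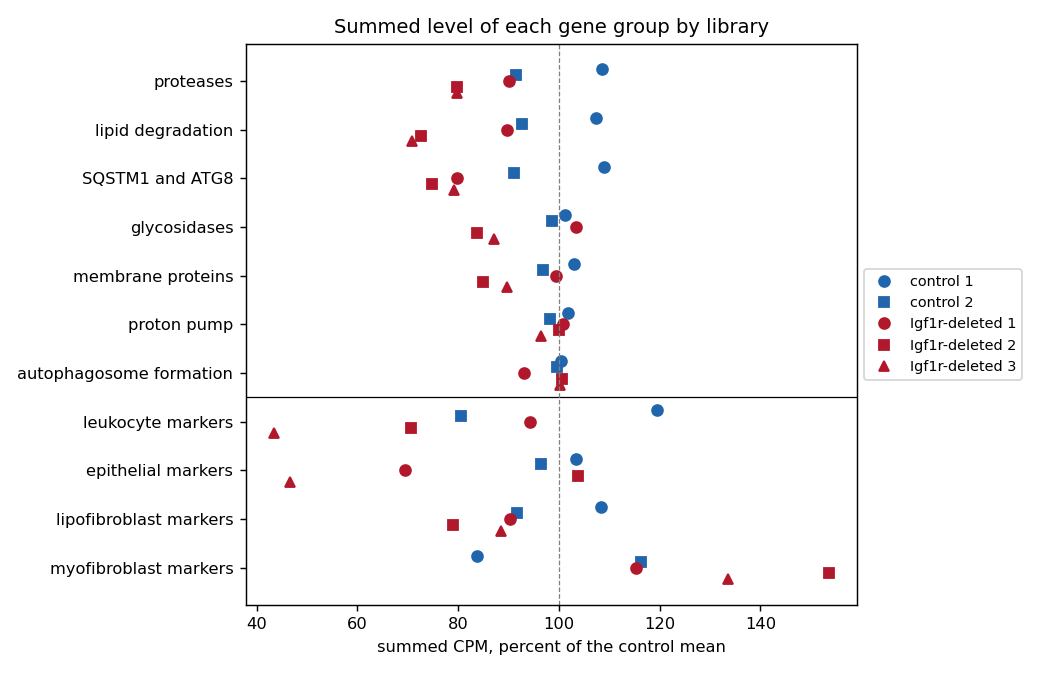
Summed CPM of each role of the members except the transcription factors (above the line) and of 4 marker lists (below it) in each library, as a percent of the mean of the 2 controls. The mutant libraries reached 74.9% to 79.7% of the control mean for SQSTM1 and the ATG8 genes and 96.5% to 100.8% for the proton pump, while leukocyte markers ran from 43.4% to 94.3% and myofibroblast markers from 115.4% to 153.6%.

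The number of members with an unadjusted p-value under 0.05 and the size of the difference both depended on which libraries were used. Control replicate 1 was the control farther from the mutant mean for 29 of the 37 members (78.4%) and for each of the 9, and for 66.7% of all genes tested. Without it, 1 member, Gabarapl1, was lower at an unadjusted p-value under 0.05 (log2 fold change −0.33), and the median over the members was −0.098. Without control replicate 2 the number was 10 and the median −0.17. Leaving out mutant replicate 1 gave 14 members, and leaving out mutant replicate 2 or 3 gave 3 in each case. Among the same 15298 genes the lower ones numbered 248 without control replicate 1, 1225 without control replicate 2, 1760 without mutant replicate 1, and 626 and 633 without mutant replicates 2 and 3. With single libraries left out, the log2 fold changes of the 9 ran from −0.63 to −0.20. Since the groups of these 9 do not overlap, leaving out a library could not turn their sign.

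**Figure D5:**
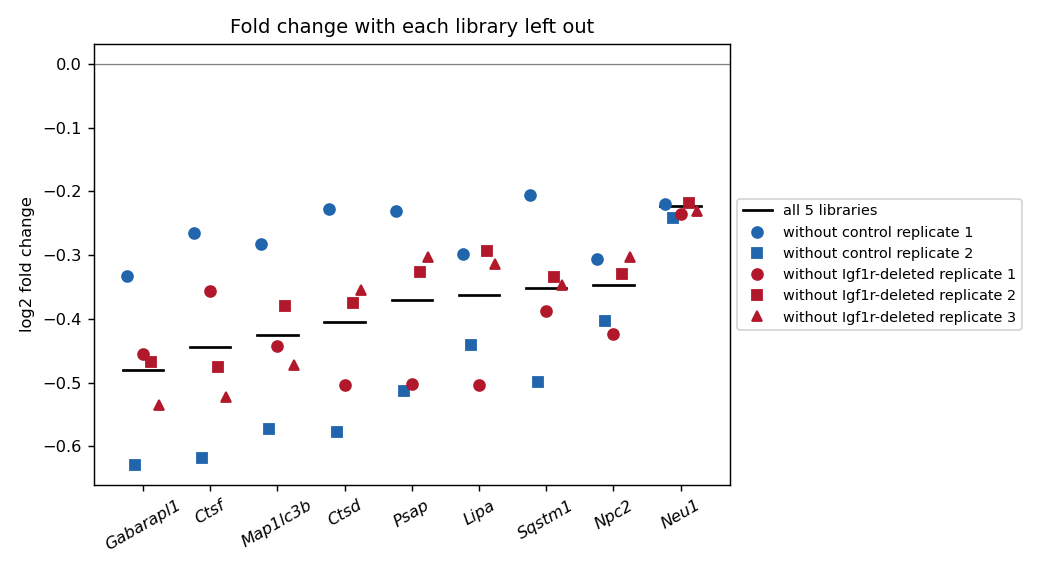
Log2 fold change of the 9 lower members with all 5 libraries (black line) and with each library left out in turn (points). The points run from −0.63 to −0.20, on 1 side of 0 because the groups of these genes do not overlap; leaving out control replicate 1 brings most of the genes closest to 0, at −0.33 for Gabarapl1 and −0.20 for Sqstm1, and Neu1 hardly moves.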

How the data were processed

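RNA-Seq was analysed in 5 libraries of GFP-sorted P6 lung cells, grouped by the sample titles into 2 control and 3 mutant libraries. Reads had been trimmed (Trim Galore), placed on mm10 (Bowtie2) and assigned to genes (GenomicAlignments), and the authors deposited raw counts per gene symbol. Bowtie2 places no read across an intron, so reads over exon junctions may be missing. Annotation, strand setting and versions are not given in the sources used here.

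Genotype alone was tested by the quasi-likelihood F test of edgeR 4.0.16 in R 4.3.3 (limma 3.58.1), after filterByExpr and TMM scaling, with Benjamini-Hochberg correction over 15298 genes. The procedure was tested on simulated data with a single dispersion for all genes and changes larger than those of the members, which does not show its power for changes as small as theirs. For the study's criterion, CPM over 1 in at least 50% of a group's libraries stood in for FPKM. Alternatives were the DESeq2 1.42.0 Wald test, limma voom, other scalings and filters, robust moderation, a replicate block, Xist as a covariate and leaving out each library. With 2 libraries against 3, no exact permutation p can be below 0.1, so none is given.

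Members and gene lists were chosen with earlier results of these data known. Values in every library are given for members with an unadjusted p-value under 0.05, members without overlap and a log2 fold change of at least 0.3 in size, Tfeb and Tfe3, the highest and lowest member of each role, and the 6 largest changes among the other listed genes with an unadjusted p-value under 0.05. The forkhead word was added after the fold changes were seen. Atg101, Rubcn and Adgre1 were found under older symbols. Positions, exon overlaps and 31-base words came from GENCODE M21, promoters from RefSeq.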

Additional observations from a re-analysis of the deposited data

How the results depend on the processing

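Each result was recomputed under 10 other settings of the processing and with each of the 5 libraries left out. Of the 37 members, 27 kept the sign of their log2 fold change in all of these, and in the 9 lower ones leaving out a library could not turn it. The adjusted p-values of those 9 ran from 0.0340 (Gabarapl1 in the DESeq2 Wald test) to 0.568 (Neu1) over the 10 settings.

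With library totals in place of TMM, where the median of all genes was 0.088, Tfe3 was 0.060, Npc1 0.0026, Map1lc3a 0.025 and Atg5 0.019. The members' median was then −0.057 and that of the other listed genes 0.0045, and 1 member was higher at an unadjusted p-value under 0.05. Of all 15298 genes, 2087 had such a p-value under this setting, and 744 of these were lower. The genes of the 2 lists with every mutant library above both controls numbered 4 and 13, against 22.4% of all genes. Gusb was −0.0050 with DESeq2 size factors, −0.0016 with the stricter filter, −0.073 with the level of Xist as a covariate, −0.00060 with limma voom and −0.0051 in the DESeq2 Wald test. Xist as a covariate left 4 lower members, Atp6v1a at −0.0017, and 1 higher and a median of −0.11 for the other listed genes, and brought 2 members to the study's criterion. Over all genes 1549 had an unadjusted p-value under 0.05 with this covariate, and 928 of these were lower. Outside the main fit the criterion was not counted over all genes, nor were genes higher at an unadjusted p-value under 0.05 counted separately. DESeq2 called 1 member, Gabarapl1 (log2 fold change −0.49), and gave Igf1r −0.94 (adjusted p = 1.11e-05). The causes of these shifts were not tested.

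Replicate numbers are shared by the groups but nothing ties the mice of a number to each other, and same-numbered libraries had deviations correlated at 0.208 and 0.121 over genes. A fit with the replicate block called 1 of the other listed genes, Ctss (−0.84), against 0 without it, gave Igf1r −1.04 (adjusted p = 0.0139) and Tfe3 0.0061, and left 8 lower members, with 2 members at the study's criterion. Over all genes that fit called 0.889% after adjustment and had 7.34% lower at an unadjusted p-value under 0.05.

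With a library left out, the lower members numbered 1 to 14, those meeting the criterion 0 to 6, and those without overlap 15 to 26 below and 2 to 5 above, where over all genes 1.61% to 11.6% were lower and 19.6% to 31.3% lay without overlap below and at least 20.1% above. Among the other listed genes the numbers were 1 to 23 lower and 0 to 3 higher, 27 to 57 and 11 to 16 without overlap, and the median ran from −0.15 to −0.022. Signs turned for Tfeb (−0.051 to 0.30), Tfe3 (−0.066 to 0.014), Gusb (−0.094 to 0.060), Atp6v1a (−0.038 to 0.063), Atp6v1h (−0.0046 to 0.30), Ulk1 (−0.19 to 0.0054), Atg5 (−0.15 to 0.034) and Uvrag (−0.036 to 0.12). Each member had at least 576 counts in each library.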
